A study of Homo sapiens with 12 samples.

Results

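The HMLE line with both the HORMAD1 and the CT83 transgene, called the double line here, was compared with the HMLE line with the control construct by RNA sequencing. HMLE cells are immortalised epithelial cells of the human breast, grown in culture. The members were chosen by their labels: 3 libraries titled for both genes against 3 titled as control, which is 6 of the 12 libraries in the series, and every gene expressed enough to be tested. The other 6 libraries, 3 each of a line with CT83 alone and a line with HORMAD1 alone, were used for the estimate of the spread and for values set side by side. All 4 lines had been selected with puromycin and no other treatment is named in the labels. Each construct is represented by 1 line, so a transgene and a difference between lines cannot be told apart. The labels do not say that the 3 replicates of a line were separate cultures, so a p-value here reflects how far these libraries vary, and that variation may be technical.

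HORMAD1 encodes a HORMA-domain protein of the meiotic chromosome axis, where it takes part in the formation and repair of DNA breaks and in homolog pairing. It is normally confined to germ cells and is switched on in some breast cancers. CT83, also known as KK-LC-1, is an X-linked cancer/testis gene that encodes a small protein of little known function. Neither gene is normally active in mammary epithelium.

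Expected counts, which are estimated counts per gene that need not be whole, were scaled to the size of each library (CPM), and 15616 genes were tested. The 12 libraries held 9898845 to 14159740 counts. The cells had the markers of a mammary epithelial line in all 6 libraries: EPCAM lay between 155 and 203 CPM, KRT5 between 2958 and 3130 CPM and TP63 between 131 and 158 CPM. Summed over 7 endothelial markers, the level was 0.758 to 1.22 CPM in the control libraries and 0.614 to 1.15 CPM in the double libraries. The sums over 10 leukocyte markers were 6.73 to 8.27 CPM and 8.78, 9.21 and 6.04 CPM, and 3 of those 10 genes were at 0 in all 6 libraries. Summed over 10 fibroblast markers, the level was 71.9, 58.4 and 94.4 CPM in the control libraries and 62.6, 74.6 and 117 CPM in the double libraries, so the groups overlapped for all 3 lists.

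Both transgenes followed the labels. HORMAD1 (ENSG00000143452.16, chr1:150698060-150720888 on GRCh38) had 0 counts in each of the 3 control libraries and 3189, 3564 and 3442 counts in the double libraries. These counts are 283, 313 and 347 CPM, a mean of 314 ± 31.8 (SD, n = 3), at least 1269-fold higher than the floor of 3 counts per control library. CT83 (ENSG00000204019.5, chrX:116461682-116463003) had 0 counts in each control library and 977, 1153 and 1170 counts in the double libraries. Its mean was 102 ± 15.6 CPM (SD, n = 3), at least 412-fold higher than the same floor. For each transgene the exact two-sided permutation p was 0.1, the smallest that 3 against 3 libraries can give.

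The 2 transgenes did not have the same standing against the single lines. HORMAD1 in the double line overlapped the HORMAD1 line, whose libraries lay between 203 and 335 CPM (exact two-sided permutation p = 0.8). CT83 in the double line was at 86.7, 101 and 118 CPM, below all 3 libraries of the CT83 line at 400, 446 and 724 CPM. The double line mean was 19.5% of the CT83 line mean, with an exact two-sided permutation p of 0.1, the smallest possible. Annotated transcripts have a median length of 785 bases for HORMAD1 and 548 bases for CT83. Per kilobase of these lengths, the double line had 400 CPM of HORMAD1 and 186 CPM of CT83. The lengths of the transgene transcripts were not known, so these values do not rank the 2 transgenes.

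Beside the 2 transgenes, 2 genes passed the quasi-likelihood test of edgeR at a Benjamini-Hochberg adjusted p under 0.05, both lower in the double line. The 4 called genes are 0.0256% of the genes tested, with 0.0128% called higher and 0.0128% called lower. CPVL (ENSG00000106066.15, chr7:28995231-29195451) encodes a carboxypeptidase-like protein. It was at 3.72, 4.81 and 3.54 CPM in the control libraries and 0.887, 1.40 and 0.604 CPM in the double libraries. The groups did not overlap, and CPVL fell by 2.03 on the log2 scale (SE 0.29; edgeR adjusted p = 0.0351).

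AIF1L (ENSG00000126878.13, chr9:131096476-131123152) encodes a calcium-binding protein that binds and bundles actin. Its values were 10.6, 12.1 and 7.84 CPM in the control libraries and 4.79, 3.16 and 4.53 CPM in the double libraries, again without overlap. AIF1L fell by 1.29 on the log2 scale (SE 0.20; edgeR adjusted p = 0.0450).

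With CT83 alone the means of CPVL and AIF1L lay between the control and double means. With HORMAD1 alone the mean of CPVL did too, and that of AIF1L lay above control. The CT83 line had 2.31, 1.64 and 2.30 CPM of CPVL and the HORMAD1 line 3.51, 3.76 and 4.04 CPM. For AIF1L the values were 7.63, 6.83 and 8.61 CPM with CT83 alone and 10.9, 12.9 and 12.1 CPM with HORMAD1 alone. Against the HORMAD1 line, CPVL was lower in the double line by a log2 fold change of -1.93 (edgeR adjusted p = 0.0230) and AIF1L by -1.52 (edgeR adjusted p = 0.0172), in a comparison where 0.0448% of all genes passed. Against the CT83 line the log2 fold changes were -1.08 and -0.89 and neither passed (edgeR adjusted p = 0.585 for both); 0.0064% of all genes passed there. These comparisons share the double libraries and do not count as separate support. The difference between the double line and the sum of the 2 single-line effects was tested as an interaction, which no gene passed (0% called): it was -0.99 for CPVL and -1.12 for AIF1L, each with an edgeR adjusted p of 0.841.

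Both calls stood near the threshold. With each of the 12 libraries left out in turn, CPVL kept its call in 5 of 12 fits, with adjusted p-values up to 0.241, and its log2 fold change stayed between -2.40 and -1.80. Its call was lost without control replicate 1, 2 or 3, double replicate 1 or 3, CT83 replicate 2 or HORMAD1 replicate 2. AIF1L kept its call in 3 of 12 fits (without control replicate 3, CT83 replicate 3 or HORMAD1 replicate 1), with adjusted p-values up to 0.399 and log2 fold changes from -1.45 to -1.12. With limma-voom in place of edgeR neither gene passed, at adjusted p-values of 0.0587 for CPVL and 0.127 for AIF1L. CT83 itself kept its call in 5 of 12 fits and HORMAD1 in 12 of 12.

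**Figure D1:**
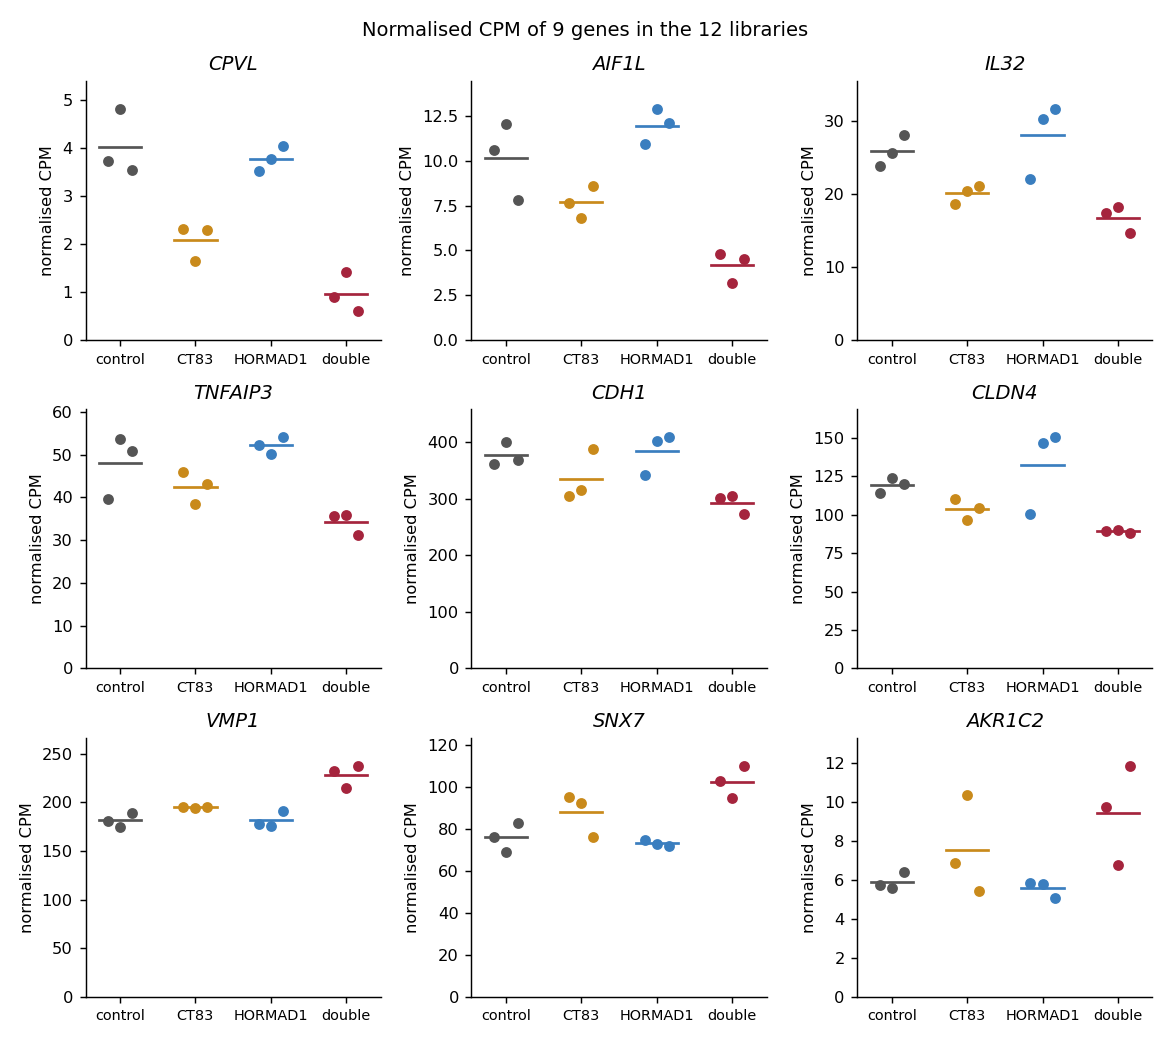
Normalised CPM (y axis, starting at 0) of 9 genes in the 3 libraries of each of the 4 lines (x axis); points are libraries and bars are means. CPVL lies at 0.604 to 1.40 CPM and AIF1L at 3.16 to 4.79 CPM in the double line, below all control libraries, and the CT83 libraries lie between for CPVL.

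The promoter of CPVL is shown because its call has the lowest p after those of the transgenes. The sequence given by RefSeq (GRCh38.p14) upstream of its first listed start, chr7:29195268-29195517 on the minus strand, is one of 3 listed windows.

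CPVL: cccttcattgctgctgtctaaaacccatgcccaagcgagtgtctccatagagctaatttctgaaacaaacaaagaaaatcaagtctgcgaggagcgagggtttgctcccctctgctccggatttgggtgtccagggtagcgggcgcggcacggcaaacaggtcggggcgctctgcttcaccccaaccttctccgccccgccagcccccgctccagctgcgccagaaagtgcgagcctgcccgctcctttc

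The letters of an E-box bound by repressors of epithelial genes, CAGGTG, and of the core of the antioxidant response element, TGACNNNGC, were searched on both strands in all 3 CPVL windows, and neither was found. Of 35116 windows of 250 bases, 17.5% held the E-box letters and 10.9% held the core. The letters were chosen after the values were seen, and no match says only that these letters are not in this window.

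Most of the transcriptome lay close to control. The median log2 fold change of all 15616 genes was -0.0015, and 50.3% of genes were below 0. Among 12190 genes with a mean log2 CPM of at least 2, the transgenes left out, the median SE was 0.13. The 95% interval of the fold change lay inside 2-fold for 95.3% of them and inside 1.5-fold for 78.4%. Only 7 genes of these 12190 had a fitted change past 2-fold, 6 lower and 1 higher. At an unadjusted p under 0.05 there were 868 genes (5.56%), of which 425 were higher (2.72% of those tested) and 443 lower (2.84%). The 3 double libraries all lay above the 3 control libraries for 1189 genes (7.61%) and all below for 1223 genes (7.83%).

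**Figure D2:**
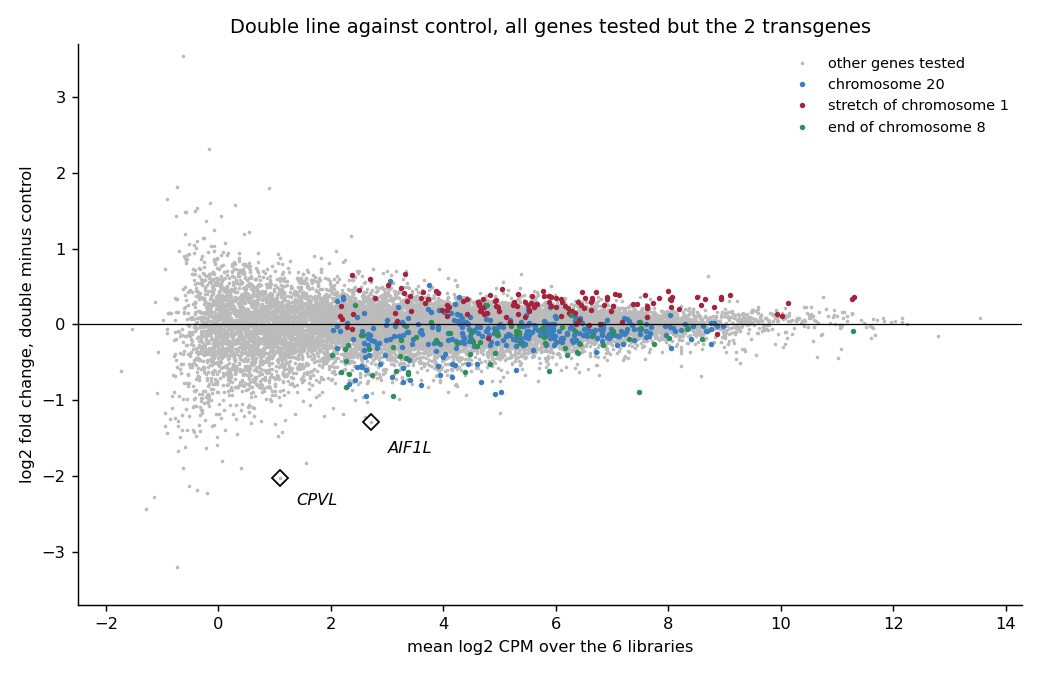
Log2 fold change of the double line minus control (y axis) against mean log2 CPM over the 6 libraries (x axis) for every gene tested except HORMAD1 and CT83. Diamonds mark CPVL and AIF1L, and colours mark the genes of chromosome 20, of a stretch of chromosome 1 and of the end of chromosome 8 with a mean log2 CPM of at least 2; the stretch of chromosome 1 lies mostly above 0.

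The genes next in order of p did not pass, with adjusted p-values of 0.652 or more in the same edgeR test, and are given as values. They were picked for not overlapping between the 2 groups. VMP1, a membrane protein of the endoplasmic reticulum needed for autophagy, was at 181, 175 and 189 CPM in control and 232, 215 and 238 CPM in the double line. Its log2 fold change was 0.33 (SE 0.07; edgeR adjusted p = 0.652), and it overlaps PTRH2 in the annotation. CSRP2, which encodes a LIM-domain protein, was at 29.6, 29.5 and 32.0 CPM against 39.8, 37.3 and 42.2 CPM. The other genes of this kind were SNX7, a sorting nexin, HSD17B11, a steroid dehydrogenase, DCLRE1B, a nuclease of telomere protection, LINC01605, EVA1A, MCTP1 and FLOT1, with log2 fold changes of 0.38 to 0.83.

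On the lower side, IL32, a cytokine, was at 23.8, 25.6 and 28.1 CPM in control and 17.4, 18.2 and 14.6 CPM in the double line (log2 fold change -0.62, SE 0.14; edgeR adjusted p = 0.652). TNFAIP3, an inhibitor of NF-kB signalling, was at 39.7, 53.8 and 50.7 CPM against 35.7, 36.0 and 31.1 CPM (log2 fold change -0.49, SE 0.12). C15orf48, a small mitochondrial protein gene induced in inflammation, was at 4.17, 7.87 and 5.81 CPM against 3.37, 2.72 and 2.11 CPM. Its log2 fold change was -1.11 against control (edgeR adjusted p = 0.652) and -1.77 against the HORMAD1 line, where it passed (edgeR adjusted p = 0.0172). E2F2, a transcription factor of S phase entry, was at 20.2, 24.1 and 19.8 CPM against 13.1, 16.3 and 13.3 CPM (log2 fold change -0.58, SE 0.14).

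The remaining lower genes were THEM6, SLCO4A1, ATP8A2, CPB2-AS1, CMAHP, OSBP2 and SIK1B, with log2 fold changes from -0.90 to -0.53. SIK1B has a near-identical copy, SIK1, so its counts are uncertain, and C15orf48, SLCO4A1 and CMAHP overlap other tested genes whose reads cannot be told apart without strand. Of low level was SELENOP, a selenium transport protein: it was at 1.06, 2.10 and 1.26 CPM in control against 0.355, 0.351 and 0.201 CPM in the double line (log2 fold change -2.22, SE 0.48; edgeR adjusted p = 0.652). It was named after its values were seen and overlaps CCDC152.

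The small differences were not spread evenly along the genome. Genes with a mean log2 CPM of at least 2 were grouped into bins of 10 Mb with at least 15 genes, 264 bins in all, after windows of neighbouring genes had been looked at, so the stretches below are descriptions with no test. The median log2 fold change lay within 0.1 of 0 in 243 bins and past 0.2 in 4. Of those 4, 3 were neighbours on chromosome 1, between 90 and 120 Mb, and 1 was the end of chromosome 8, from 140 Mb on. The next bins were at 0.14 and -0.19, the latter on chromosome 20.

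The stretch of chromosome 1 held 138 genes, of which 133 (96.4%) were above 0, with a median log2 fold change of 0.27. At an unadjusted p under 0.05 stood 71 of them (51.4%) on the higher side, where 2.72% of all genes did, and 0 on the lower. The groups did not overlap on the higher side for 80 (58.0%), against 7.61% of all genes. None passed the adjusted threshold. The median log2 CPM of these genes, relative to the mean of the control libraries, was 0.05, -0.13 and 0.09 in control. It was 0.36, 0.22 and 0.24 in the double libraries. It was 0.20, 0.10 and 0.02 in the CT83 line and 0.06, -0.06 and -0.12 in the HORMAD1 line, so the double libraries were the highest 3 of the 12. The bin just before, from 80 to 90 Mb, had a median of 0.00 over 37 genes. At an unadjusted p under 0.05, however, 10 of them (27.0%, against 2.72% of all genes) were higher and 3 (8.11%, against 2.84%) lower. Its genes differed along the bin: the 10 genes from 80 to 85 Mb had a median of -0.13, and the 27 from 85 to 90 Mb, which include those 10 higher genes, 0.08. The rest of chromosome 1, 1121 genes, had a median of -0.00. The 11 genes between 120 and 125 Mb, too few for a bin, had a median of 0.29. With CT83 alone against control their median was 0.32. Their library medians were 0.42, 0.10 and 0.34 in the double line and 0.22, 0.38 and 0.23 in the CT83 line. In the HORMAD1 line they were 0.41, -0.29 and -0.26, so for these genes the double libraries were not the highest.

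The genes named from the stretches were chosen after their values were seen. SNX7 was at 76.4, 69.2 and 82.7 CPM in control and 103, 94.97 and 110 CPM in the double line (log2 fold change 0.43, SE 0.10; edgeR adjusted p = 0.652). RAP1A, a small GTPase of cell adhesion, was at 114, 109 and 124 CPM against 172, 141 and 147 CPM (0.40, SE 0.11; edgeR adjusted p = 0.712). RAP1A overlaps INKA2 in the annotation, where reads cannot be told apart without strand. ARHGAP29, a RhoA-inhibiting GTPase activator, was at 439, 391 and 461 CPM against 554, 508 and 600 CPM (0.37, SE 0.10). The values of SNX7, RAP1A and ARHGAP29 did not overlap between the groups. SARS1, the cytosolic seryl-tRNA synthetase, DCLRE1B and EXTL2, an enzyme of heparan sulfate synthesis, had log2 fold changes of 0.36, 0.38 and 0.47. PHGDH, the first enzyme of serine synthesis, was at 226, 194 and 237 CPM against 318, 275 and 301 CPM (0.45, SE 0.15; edgeR adjusted p = 0.797).

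At the end of chromosome 8, 66 of 71 genes (93.0%) were below 0 with a median log2 fold change of -0.23. There, 14 genes were lower and 0 higher at an unadjusted p under 0.05, and 25 had non-overlapping lower values. These are 19.7% and 35.2% of the genes there, where 2.84% and 7.83% of all genes were so on the lower side. Relative to the control mean, the median log2 CPM was -0.02, 0.05 and -0.08 in control. In the double line it was -0.29, -0.11 and -0.26, without overlap with control. It was -0.12, -0.07 and 0.05 in the CT83 line, which overlapped the double line, and 0.01, -0.04 and -0.04 in the HORMAD1 line. The genes there are rich in GC, with a median of 62.9% against 49.1% over all genes at this level, and with trends on length and GC content removed the median was -0.18. THEM6 was at 32.5, 38.1 and 31.8 CPM against 21.3, 26.1 and 23.5 CPM (log2 fold change -0.53, SE 0.12). AGO2, the slicing Argonaute protein, was at 92.9, 106 and 84.8 CPM against 66.8, 76.1 and 77.7 CPM (-0.36, SE 0.11; edgeR adjusted p = 0.764).

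On chromosome 20 as a whole, 245 of 312 genes (78.5%) were below 0 with a median of -0.11. On the lower side 29 genes (9.29%, against 2.84% of all genes) had an unadjusted p under 0.05, and on the higher 4 (1.28%, against 2.72%). The chromosome was not shifted along its whole length: the bins from 10 to 20 Mb and from 20 to 30 Mb had medians of 0.00 and 0.01, and its other 5 bins had medians from -0.19 to -0.09. The library medians, again relative to the control mean, were 0.04, -0.01 and -0.03 in control and -0.12, -0.05 and -0.13 in the double line. They were -0.01, -0.05 and -0.05 in the CT83 line, which overlapped the double line, and 0.00, -0.01 and -0.02 in the HORMAD1 line. MYBL2, a transcription factor of proliferating cells, was at 290, 317 and 282 CPM against 233, 262 and 220 CPM (log2 fold change -0.31, SE 0.09; edgeR adjusted p = 0.712). STAU1, an RNA-binding protein, was at 158, 163 and 158 CPM against 122, 144 and 136 CPM (-0.26, SE 0.08).

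With each library left out in turn, the median stayed between 0.21 and 0.33 for the chromosome 1 stretch, between -0.27 and -0.16 for the end of chromosome 8 and between -0.14 and -0.09 for chromosome 20. DNA was not analysed here, and why neighbouring genes had shifted levels was not tested.

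**Figure D3:**
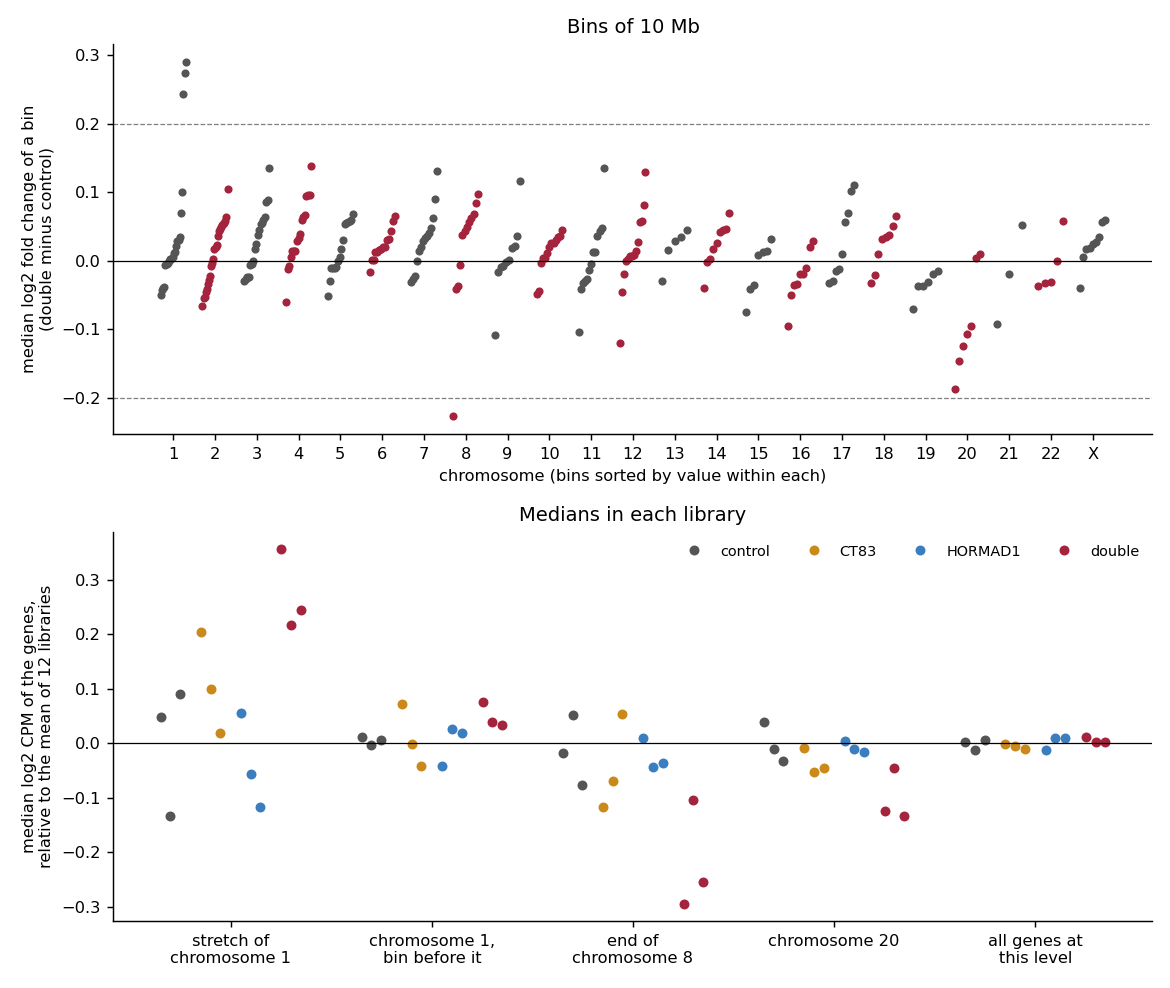
Top, median log2 fold change (y axis) of each of the 264 bins of 10 Mb by chromosome (x axis), with dashed lines at 0.2 and -0.2; 3 bins of chromosome 1 and 1 of chromosome 8 lie past them. Bottom, median log2 CPM of the genes of a stretch (y axis), with 1 point per library. The axis label names 12 libraries, but the values are relative to the mean of the 3 control libraries. The 3 double libraries at 0.22 to 0.36 are the highest for the stretch of chromosome 1.

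Lists of genes by role were then described; AIF1L and CPVL were the only list members called. A median within 0.05 of 0 is given with no direction, and where leaving out a library moved another median by over 1.5 times that library is named. Epithelial cells are held together by cadherins and by tight junctions of claudins and occludin. Of 22 tested genes of adherens and tight junctions, 19 (86.4%) were below 0, against 50.3% of all genes, with a median of -0.21. At an unadjusted p under 0.05 were 3 on the lower side (13.6%, against 2.84% of all genes) and 0 on the higher, and 6 had non-overlapping lower values (27.3%, against 7.83%). The median was -0.14 without double replicate 3. CDH1, E-cadherin, was at 361, 401 and 370 CPM in control and 302, 305 and 273 CPM in the double line. The groups did not overlap (log2 fold change -0.36, SE 0.10), but CDH1 did not pass (edgeR adjusted p = 0.712). CLDN4, a sealing claudin, was at 114, 124 and 120 CPM against 89.4, 90.1 and 88.2 CPM (-0.42, SE 0.12; edgeR adjusted p = 0.712). OCLN, occludin, was at 30.0, 28.3 and 27.6 CPM against 19.96, 24.2 and 22.7 CPM (-0.36, SE 0.14; edgeR adjusted p = 0.846).

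Not every junction gene was lower. EPCAM, an epithelial adhesion molecule, was at 196, 199 and 191 CPM against 203, 186 and 155 CPM, with overlapping groups, and 3 of the 22 were above 0. The 9 genes of desmosomes had a median of -0.08 and the 9 of hemidesmosomes and their laminin a median of -0.20, with no member at an unadjusted p under 0.05 in either list. The hemidesmosome median was -0.04 without control replicate 2 and -0.09 without double replicate 1. That of desmosomes was -0.03 without control replicate 2 and -0.14 to -0.12 without control replicate 1 or double replicate 1 or 2.

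Transcription factors of the epithelial state had the same sign. Of 12 tested, 10 (83.3%) were below 0, against 50.3% of all genes, with a median of -0.17. At an unadjusted p under 0.05 were 4 (33.3%), all lower, where 2.84% of all genes were. ELF3 was at 14.9, 17.5 and 13.3 CPM against 10.1, 13.1 and 7.85 CPM (log2 fold change -0.55, SE 0.18; edgeR adjusted p = 0.764). GRHL3, a Grainyhead factor of barrier formation, was at 18.9, 17.6 and 18.6 CPM against 12.2, 14.2 and 14.9 CPM (-0.41, SE 0.16). ESRP2, an epithelial splicing factor, and KLF5 had log2 fold changes of -0.30 and -0.23. These 4 genes had no overlap between the groups and none passed the adjusted threshold.

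Luminal genes, expressed by the inner layer of the mammary duct, were the list with the lowest median among those with at least 7 members tested. Of 15 listed genes, 9 were tested, 8 of them were below 0, and the median was -0.32. KRT8 was at 2266, 2611 and 2350 CPM against 1891, 2109 and 1766 CPM (log2 fold change -0.33, SE 0.11; edgeR adjusted p = 0.797). Its keratin partner KRT18, at 1123, 1255 and 1137 CPM against 937, 1057 and 868 CPM, had -0.30 (SE 0.10), but the 2 genes overlap in the annotation. GATA3, the luminal transcription factor, was at 11.8, 16.1 and 11.6 CPM against 8.61, 10.3 and 8.46 CPM (-0.53, SE 0.19; edgeR adjusted p = 0.806). Basal genes had a median of -0.02 over 15 tested. KRT5 (3063, 3037 and 3130 CPM against 3040, 3113 and 2958 CPM) and TP63 (140, 131 and 146 CPM against 158, 140 and 142 CPM) overlapped.

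For CLDN4 and ELF3 the RefSeq promoters are shown, and the E-box letters were searched in each because repressors of epithelial genes bind them. ELF3 (chr1:202010337-202010586, plus strand) held the reverse complement of CAGGTG once, 120 bases before the start, shown in capitals.

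ELF3: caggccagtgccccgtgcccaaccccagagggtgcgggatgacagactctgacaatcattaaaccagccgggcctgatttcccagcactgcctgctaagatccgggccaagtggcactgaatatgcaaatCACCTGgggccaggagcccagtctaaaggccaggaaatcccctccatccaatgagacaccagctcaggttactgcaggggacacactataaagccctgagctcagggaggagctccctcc

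CLDN4 (chr7:73830746-73830995, plus strand) did not hold them.

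CLDN4: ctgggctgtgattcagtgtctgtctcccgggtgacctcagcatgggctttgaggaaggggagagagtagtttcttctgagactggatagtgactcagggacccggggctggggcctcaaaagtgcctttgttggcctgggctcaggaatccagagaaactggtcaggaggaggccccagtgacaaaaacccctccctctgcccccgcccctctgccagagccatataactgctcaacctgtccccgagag

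With CPVL and CT83 the letters were searched in 6 windows and found in 1, where 17.5% of all windows hold them.

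The mesenchymal side did not show the opposite sign. Of 22 mesenchymal genes tested, 15 were below 0 with a median of -0.11, 1 was higher (4.55%, against 2.72% of all genes) and 3 were lower (13.6%, against 2.84%) at an unadjusted p under 0.05. The median was -0.04 without double replicate 1, -0.07 without control replicate 3 and -0.23 without double replicate 3. TNC, an extracellular matrix protein, was at 121, 172 and 121 CPM against 80.6, 100 and 80.1 CPM (log2 fold change -0.66, SE 0.20; edgeR adjusted p = 0.764). VIM, vimentin, overlapped at 286, 289 and 313 CPM against 275, 363 and 322 CPM. The 8 tested transcription factors of epithelial-mesenchymal transition had a median of 0.06, 4 on each side of 0. That median was 0.18 without control replicate 1, 0.04 and 0.02 without control replicates 2 and 3, and -0.02 without double replicate 3. SNAI2 was at 66.4, 58.5 and 74.4 CPM against 69.6, 72.6 and 77.7 CPM, and ZEB1 was below 2.4 CPM in all 6 libraries.

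Genes of the actin cytoskeleton, the list that holds AIF1L, had a median of -0.13, with 20 of 29 below 0, and of -0.08 without control replicate 2 or double replicate 1. MYL9, a myosin light chain, was at 11.8, 15.6 and 13.1 CPM against 7.36, 7.54 and 9.46 CPM (log2 fold change -0.74, SE 0.24, edgeR adjusted p = 0.764). It lies on chromosome 20, in a bin whose median was below 0. LCP1, an actin-bundling plastin, had -0.76 (SE 0.27). CNN3, a calponin, had the opposite sign at 0.22 and lies in the stretch of chromosome 1. The list that holds CPVL, lysosomal proteases and their inhibitors, had a median of -0.00 over 16 tested. In it SCPEP1, another serine carboxypeptidase, was at 103, 81.6 and 101 CPM against 132, 114 and 120 CPM (0.36, SE 0.11; edgeR adjusted p = 0.764).

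Several signalling lists lay below 0. Targets of YAP and TAZ, effectors of the Hippo pathway, had a median of -0.17 (20 of 23 below 0), immediate early genes -0.22 (18 of 21), Notch genes -0.21 (11 of 14), Wnt genes -0.11 (18 of 22) and NF-kB and inflammatory genes -0.12 (16 of 23). These sizes rested in part on single libraries. Without double replicate 1 the medians were -0.06 for YAP and TAZ targets, -0.14 for immediate early genes, -0.09 for Notch genes and -0.04 for Wnt genes. Without control replicate 2 they were -0.14 for immediate early genes, -0.08 for Notch genes and -0.06 for NF-kB genes. The YAP and TAZ and Wnt medians were -0.27 and -0.20 without double replicate 3, and the NF-kB median was -0.20 without control replicate 1. MYC was at 409, 407 and 380 CPM against 337, 352 and 329 CPM (log2 fold change -0.23, SE 0.07; edgeR adjusted p = 0.712). KLF6, a zinc-finger factor, was at 324, 315 and 373 CPM against 281, 268 and 251 CPM (-0.34, SE 0.11; edgeR adjusted p = 0.764). The groups did not overlap for MYC, KLF6 or FZD2, a Wnt receptor with a log2 fold change of -0.35 (SE 0.12). Among NF-kB genes, PTGS2 and CXCL2 had -0.50 and -0.53 beside TNFAIP3, and BIRC3 overlapped between the groups.

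**Figure D4:**
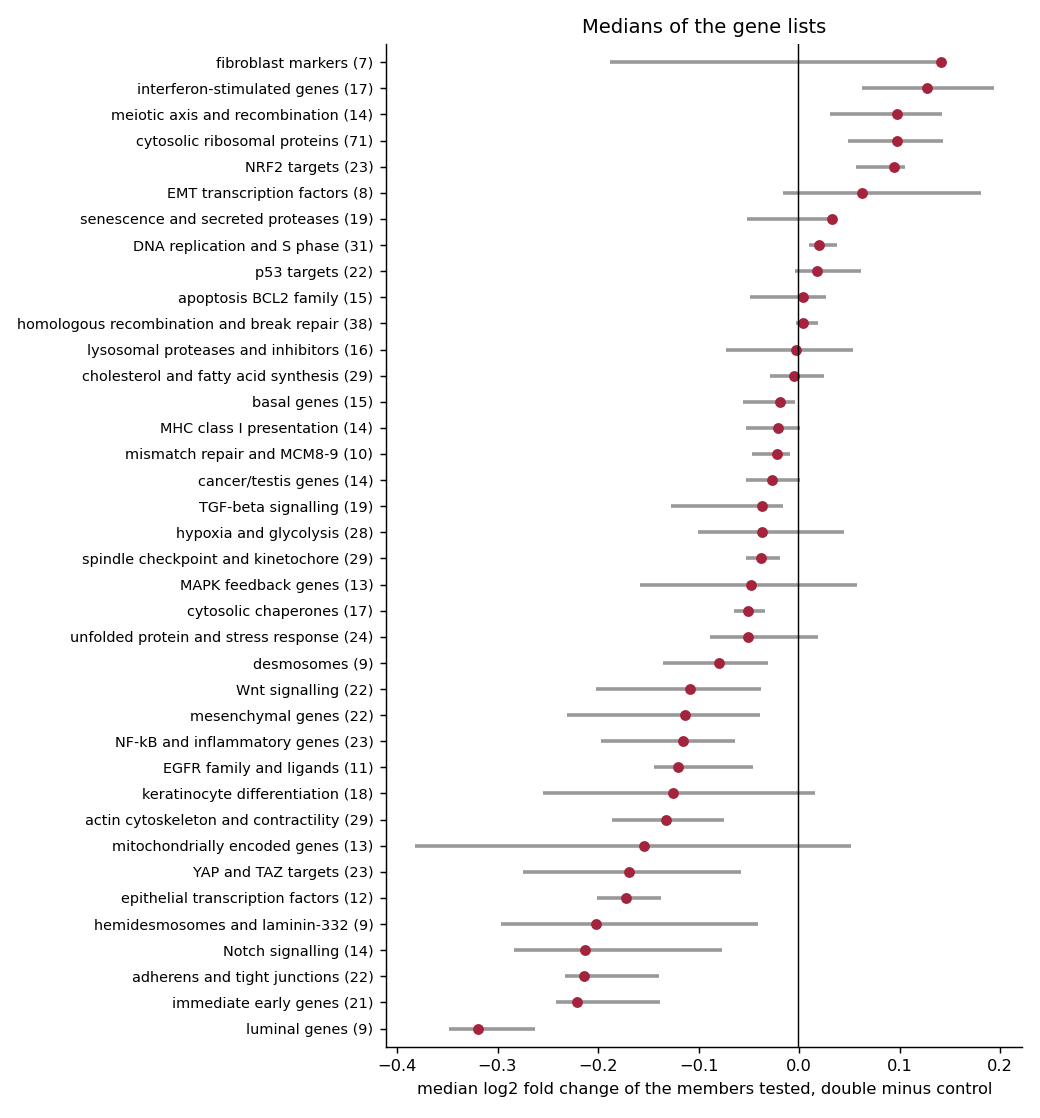
Median log2 fold change of the double line minus control (x axis) of each gene list with at least 7 members tested (y axis, number tested in parentheses); points are the medians, grey lines the range with each library left out in turn, and the vertical line the median of all genes, -0.0015. Luminal genes lie lowest at -0.32, and the mitochondrially encoded genes have the widest range.

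Targets of NRF2, the transcription factor of the antioxidant response, lay on the higher side: 21 of 23 (91.3%) were above 0 with a median of 0.09, against 49.7% of all genes. On the higher side 5 (21.7%, against 2.72% of all genes) had an unadjusted p under 0.05, and 0 on the lower. The median was 0.06 without control replicate 1 or 2. AKR1C2, an aldo-keto reductase, was at 5.76, 5.59 and 6.40 CPM against 9.76, 6.75 and 11.9 CPM (log2 fold change 0.67, SE 0.24; edgeR adjusted p = 0.797). AKR1C1 and AKR1C3 had 0.49 (SE 0.22) and 0.51 (SE 0.21), and for all 3 the double libraries lay above the control libraries. GCLM, a subunit of the enzyme that starts glutathione synthesis, was at 208, 162 and 205 CPM against 233, 208 and 262 CPM (0.29, SE 0.11) and lies in the stretch of chromosome 1. The range over the list was -0.02 to 0.67. Without GCLM, its only member on the stretches, the median was 0.07 over 22 genes.

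The AKR1C genes are near copies of each other, so the counting can split their reads and each single value is uncertain. The share of NRF2 targets given above counts each of them, so it does not rest on separate genes alone. The RefSeq promoters of these genes show how close the copies are. AKR1C1 (chr10:4963165-4963414, plus strand) and AKR1C2 (chr10:5003858-5004107, minus strand) were 96.5% identical. AKR1C1 and the first of 2 listed AKR1C3 windows were 72.4% identical. The bases after the start of that AKR1C3 window were not found in an annotated transcript of the gene. The other AKR1C3 window was not compared.

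AKR1C1: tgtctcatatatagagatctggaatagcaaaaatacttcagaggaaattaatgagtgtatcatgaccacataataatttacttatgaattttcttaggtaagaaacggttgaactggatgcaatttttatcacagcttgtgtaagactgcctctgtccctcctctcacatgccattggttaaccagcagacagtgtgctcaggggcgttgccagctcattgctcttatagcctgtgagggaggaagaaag

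AKR1C2: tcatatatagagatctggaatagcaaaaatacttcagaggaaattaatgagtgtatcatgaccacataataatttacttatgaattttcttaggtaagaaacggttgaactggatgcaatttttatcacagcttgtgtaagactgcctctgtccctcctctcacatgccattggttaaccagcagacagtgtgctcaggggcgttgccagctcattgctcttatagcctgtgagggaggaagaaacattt

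GCLM (chr1:93909431-93909680, minus strand) held the antioxidant core letters TGACNNNGC, in reverse complement, 34 bases before the start, shown in capitals.

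GCLM: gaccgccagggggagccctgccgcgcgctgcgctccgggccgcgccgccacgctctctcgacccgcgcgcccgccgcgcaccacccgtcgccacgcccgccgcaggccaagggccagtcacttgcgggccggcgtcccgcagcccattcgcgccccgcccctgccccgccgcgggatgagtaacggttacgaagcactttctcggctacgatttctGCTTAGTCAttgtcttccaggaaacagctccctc

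The core was searched in the windows of AKR1C1, AKR1C2, AKR1C3, GCLM, NQO1, CPVL and CT83 and found in GCLM only, where 10.9% of all windows hold it.

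Cytosolic ribosomal protein genes had a median of 0.10, and 64 of 71 were above 0. The median was 0.06 without control replicate 2 and 0.05 without double replicate 1. RPL5, which lies in the stretch of chromosome 1, was at 2359, 1922 and 2298 CPM against 3051, 2686 and 2555 CPM (log2 fold change 0.33, SE 0.12; edgeR adjusted p = 0.797). The trend of level on transcript length moved with these short genes. The slope of log2 CPM per doubling of length was -0.004, 0.026 and -0.009 in control and -0.043, -0.022 and -0.001 in the double line. The mean of the ribosomal genes relative to the 12 libraries was 0.04, -0.09 and 0.04 in control and 0.18, 0.09 and 0.01 in the double line. With the length trend removed the median of the list was 0.09. The 2412 genes with the longest transcripts had a median of -0.05, with 51 higher (2.11%, against 2.72% of all genes) and 116 lower (4.81%, against 2.84%) at an unadjusted p under 0.05. They are the last of 5 classes of length, and the other 4 had medians between 0.00 and 0.02. The 13 mitochondrially encoded genes were all below 0 with a median of -0.15, but it was 0.05 without double replicate 3, -0.05 without control replicate 1, -0.24 without control replicate 3 and -0.38 without double replicate 2.

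**Figure D5:**
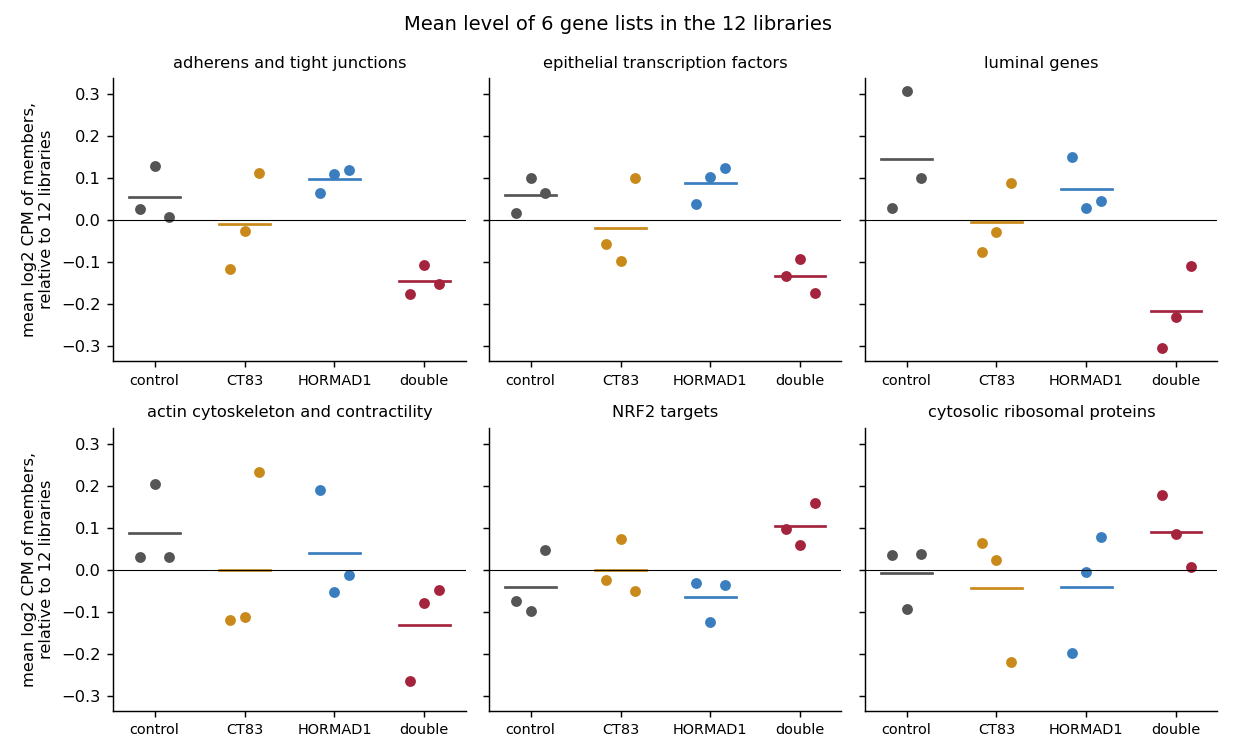
Mean log2 CPM of the members of 6 lists, relative to the mean of the 12 libraries (y axis), in the 3 libraries of each line (x axis); points are libraries and bars are means. For junction genes the double libraries lie at -0.17 to -0.11 and the control libraries at 0.01 to 0.13, and for NRF2 targets at 0.06 to 0.16 and -0.10 to 0.05.

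Lists for the pathways in which HORMAD1 acts in germ cells held no called gene. Of 43 genes of the meiotic axis and recombination, 14 were expressed enough to be tested, and 12 of these (85.7%) were above 0, against 49.7% of all genes. Their median was 0.10, with none at an unadjusted p under 0.05. It was 0.05 without control replicate 1, 0.04 without control replicate 3 and 0.03 without double replicate 3. SYCE2, of the synaptonemal complex, was at 8.34, 7.78 and 9.10 CPM against 9.41, 9.91 and 10.7 CPM (log2 fold change 0.25, SE 0.14; edgeR adjusted p = 0.900). Genes of homologous recombination and break repair had a median of 0.00, 19 of 38 on each side of 0. BRCA1 was at 46.8, 55.4 and 42.5 CPM against 39.8, 41.7 and 46.9 CPM, with a 95% interval of the log2 fold change from -0.59 to 0.25. RIF1, a regulator of break repair choice, had -0.19 (SE 0.08; edgeR adjusted p = 0.865).

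Mismatch repair genes with MCM8 and MCM9 had a median of -0.02 over 10 tested. MCM9, a helicase whose protein is known to bind HORMAD1, was at 55.5, 46.9 and 52.7 CPM against 55.1, 52.3 and 58.0 CPM, with an interval from -0.16 to 0.34. Of 61 cancer/testis genes other than the transgenes, 14 were tested, with a median of -0.03 and none at an unadjusted p under 0.05. Genes of DNA replication had a median of 0.02 over 31 and those of the spindle checkpoint and kinetochore -0.04 over 29. CCNE1, cyclin E1, was at 11.8, 12.4 and 13.4 CPM against 9.32, 9.73 and 9.76 CPM (log2 fold change -0.38, SE 0.14; edgeR adjusted p = 0.806). TERT, the telomerase catalytic subunit, overlapped at 9.48, 9.44 and 10.2 CPM against 4.08, 7.45 and 9.87 CPM.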

How the data were processed

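Polyadenylated RNA of 4 HMLE-derived lines had been sequenced, with 3 libraries per line. The library kit was NEBNext Ultra, per the labels' protocols. The submitters' processing notes name STAR 2.7.5c, Trimmomatic 0.39, SAMtools and Picard, and both hg38 and hg19 without their roles. Which counter, annotation and strand setting were used is not given in the sources used here. As values, the authors deposited expected counts, estimated counts per gene with no normalisation, for 61533 entries per library.

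The values were rounded to whole numbers, since 6.75% were not whole. In R 4.3.3, edgeR 4.0.16 kept 15616 genes with filterByExpr at a minimum count of 10, scaled them by TMM and fitted a robust quasi-likelihood model to all 12 libraries, with a mean for each line (8 residual degrees of freedom). A gene was called where its p, adjusted by Benjamini and Hochberg over all genes tested, was under 0.05. CPM are normalised values. Median log2 CPM used a prior count of 2. Floors of 3 counts cover counting error only. Coordinates, lengths and GC content came from GENCODE 29 (GRCh38), which held 58339 of the identifiers; promoters came from RefSeq (GRCh38.p14). The fit was tested on simulated data. No library pair agreed within sampling noise.

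Members, the 40 gene lists and the rule for named genes were chosen with earlier results of these data known. The rule took the transgenes, called genes, the 12 higher and 12 lower genes with the smallest p among those with non-overlapping groups and a mean log2 CPM of 2 or more, up to 4 genes per list by p, and 23 fixed genes. Some genes that it named are not reported here. Genes of the chromosomal stretches, SELENOP, the bins, and the promoter motifs were chosen after values were seen. Alternatives were other scalings and filters, DESeq2 1.42.0, limma-voom (limma 3.58.1), the 6 libraries alone, the replicate number as a block, libraries left out, length and GC trends removed, and other thresholds.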

Additional observations from a re-analysis of the deposited data

How the results depend on the processing

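Over the 24 other fits, 0 of the 1968 recomputed log2 fold changes of the 82 genes named here changed sign. The number of genes called higher was 2 and lower 2. With all libraries kept, the higher count was 1 at an adjusted p under 0.01 and otherwise 2, and it was 3 with the 3 libraries with the steepest length trend left out. The lower count was 10 with those 3 libraries left out, 10 with no low-count filter, 4 with only the 6 libraries compared, 1 with library size alone, 1 with length and GC trends removed, 0 with limma-voom and 0 at an adjusted p under 0.01. With 1 library left out in turn the higher count ran from 1 to 2 and the lower from 0 to 4. AIF1L had adjusted p-values of 0.0665 with library size alone and 0.0583 with length and GC trends removed, and CT83 had 0.0885 with no low-count filter. The cause was not tested. The removal of length and GC trends, and the removal of list members on the 3 stretches, were chosen after the data were seen.

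The labels do not say whether the replicate numbers pair the samples. Deviations from the group means of same-numbered control and double libraries correlated at 0.148, 0.182 and -0.067. Those of differently numbered libraries correlated at -0.277 to 0.185, so these values cannot decide it. With the replicate number as a replicate block, 2 genes were called higher and 0 lower (adjusted p = 0.108 for CPVL and 0.231 for AIF1L in edgeR).

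Of 1022 recomputed medians of lists and stretches, 1010 moved by less than the spread between libraries. With 1 library left out in turn, the medians of 23 of 38 lists kept their sign in every fit and those of 15 did not. Without double replicate 3 the median was -0.14 for junction genes and 0.03 for meiotic genes, and without control replicate 2 it was 0.21 for the stretch of chromosome 1. At 9898845 to 13322838 counts per library and 3 libraries per line, the 95% interval lay inside 1.5-fold for 78.4% of the genes at a mean log2 CPM of at least 2.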

Other observations

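Of 17 interferon-stimulated genes tested, 13 were above 0 with a median log2 fold change of 0.13, and the members differed in sign. The median was 0.06 without double replicate 1 and 0.19 without double replicate 3. IFI44 was at 46.1, 39.3 and 46.6 CPM in the control libraries and 74.8, 58.3 and 44.5 CPM in the double libraries, so the groups overlapped (log2 fold change 0.43, SE 0.14; edgeR adjusted p = 0.797). OASL, an oligoadenylate synthetase-like protein, was at 33.7, 39.3 and 33.8 CPM against 60.7, 56.3 and 31.7 CPM, with double replicate 3 below every control library. MX1, an antiviral GTPase, was at 3.94, 4.20 and 2.53 CPM against 2.48, 2.19 and 1.71 CPM, without overlap and with the opposite sign (-0.73, SE 0.26; edgeR adjusted p = 0.797).

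Genes of senescence and secreted proteases had a median of 0.03 over 19 tested, and -0.05 without control replicate 2. At an unadjusted p under 0.05 were 4 on the higher side (21.1%, against 2.72% of all genes) and 1 on the lower (5.26%, against 2.84%). IGFBP7, which binds insulin-like growth factors, was at 54.7, 56.3 and 55.9 CPM against 70.8, 62.2 and 85.8 CPM (log2 fold change 0.39, SE 0.11; edgeR adjusted p = 0.712). TIMP3, an inhibitor of metalloproteinases, was at 110, 115 and 108 CPM against 92.5, 97.2 and 88.7 CPM (-0.26, SE 0.07; edgeR adjusted p = 0.712). BCL2L11, the proapoptotic BIM, was at 14.6, 17.3 and 16.7 CPM against 11.9 to 12.8 CPM (-0.40, SE 0.12) while the 15 tested genes of the BCL2 family had a median of 0.00. PLK2, a p53-regulated kinase, was at 199, 213 and 210 CPM against 168, 169 and 174 CPM (-0.28, SE 0.09), while the 22 tested p53 targets had a median of 0.02. ANGPTL4, a lipase inhibitor induced in hypoxia, was at 48.5, 34.1 and 43.2 CPM against 53.9, 59.9 and 57.0 CPM (0.44, SE 0.15). None of the 5 genes overlapped between the groups, and none passed the adjusted threshold of edgeR.

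Among 11 genes of the EGFR family and its ligands, 10 were below 0 with a median of -0.12, which was -0.05 without double replicate 2. The exception was EREG, epiregulin, at 29.04, 22.6 and 26.2 CPM in control against 33.0, 31.0 and 32.6 CPM (log2 fold change 0.31, SE 0.14; edgeR adjusted p = 0.870). The remaining lists had medians between -0.13 and -0.00: keratinocyte differentiation -0.13, the unfolded protein response -0.05, cytosolic chaperones -0.05, MAPK feedback genes -0.05, hypoxia and glycolysis -0.04, TGF-beta signalling -0.04, MHC class I presentation -0.02 and cholesterol and fatty acid synthesis -0.00. Most of these turned sign with a single library left out: keratinocyte differentiation (0.02) and the unfolded protein response (0.02) without double replicate 3, hypoxia and glycolysis (0.04) without the same library, MAPK feedback genes without control replicate 2 (0.03), double replicate 1 (0.02) or double replicate 2 (0.06), MHC class I presentation (0.00) without control replicate 3, and cholesterol and fatty acid synthesis (0.03) without control replicate 2. The keratinocyte median was also -0.05 without control replicate 2 and -0.26 without double replicate 2. The unfolded protein median was -0.09 without double replicate 2 and -0.03 without control replicate 3. The 7 tested fibroblast markers had a median of 0.14, but -0.00 without control replicate 2, 0.00 without control replicate 3 and -0.19 without double replicate 3. The 2 tested leukocyte markers had a median of 0.14.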
